A study of Mus musculus with 16 samples.

Results

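The integrated stress response genes described here are Atf4, Atf5, Atf3, Ddit3, Trib3, Asns, Chac1, Psat1, Sesn2 and Nupr1, chosen by name with every probe that the platform annotation assigns to them. They were represented by 14 of the 25697 probes of the array, and 10 of these probes, covering 8 of the 10 genes, were detected well enough to be tested. RNA came from livers of old male C57BL/6 mice, bought at 104 weeks of age, kept on an AIN-93G standard diet and then assigned to 3 diets for 17 weeks. EOW mice (n = 5) received this diet with 1% metformin every other week, 2WM mice (n = 4) received it with 1% metformin for 2 weeks in a row each month, and SD mice (n = 4) received it without metformin. Metformin is an oral drug for type 2 diabetes that lowers glucose output by the liver. One mouse of each group was measured on a second array, which gave 6 EOW, 5 2WM and 5 SD arrays, and the arrays of 1 mouse were averaged. Each value is a single time point from whole liver, in which fewer cells of a type and less RNA per cell cannot be told apart.

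The integrated stress response is the arm of cell stress signalling in which kinases that sense amino acid shortage, misfolded protein in the endoplasmic reticulum (ER), viral RNA or lack of haem phosphorylate the translation factor eIF2α. Most translation then slows, while the mRNA of the transcription factor ATF4 is translated more, so that ATF4 activity can change without a change in its mRNA. ATF4 and its partners switch on genes for amino acid synthesis and uptake, for tRNA charging and, through CHOP, for cell death.

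ATF4 and C/EBP dimers are known to bind a composite element with the core TGATGNAA, and this core was looked for in the 250 bases before the RefSeq gene starts of the 10 genes (GRCm38.p6, 12 windows, both strands). It occurred in the windows of 4 of the 10 genes, namely Asns, Chac1, Nupr1 and Atf3, and in 1134 of all 32851 windows of that length in the table, which is 3.45%. A match describes the letters and is not evidence of binding. The 4 windows are shown on the strand of the gene, ending at the base before its start, with the core in capitals (TTGCATCA is the core read from the opposite strand).
Asns, chr6:7693210-7693459, minus strand: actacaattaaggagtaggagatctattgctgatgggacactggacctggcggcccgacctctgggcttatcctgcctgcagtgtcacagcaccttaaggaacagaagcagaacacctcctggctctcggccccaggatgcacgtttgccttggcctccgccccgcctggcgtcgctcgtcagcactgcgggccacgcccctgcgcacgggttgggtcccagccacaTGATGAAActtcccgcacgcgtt
Chac1, chr2:119350992-119351241, plus strand: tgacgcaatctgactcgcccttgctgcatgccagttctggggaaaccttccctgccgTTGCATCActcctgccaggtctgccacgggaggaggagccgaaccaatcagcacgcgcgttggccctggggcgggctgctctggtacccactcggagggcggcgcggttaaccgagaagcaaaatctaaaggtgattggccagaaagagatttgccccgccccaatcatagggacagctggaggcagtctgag
Nupr1, chr7:126625471-126625720, minus strand: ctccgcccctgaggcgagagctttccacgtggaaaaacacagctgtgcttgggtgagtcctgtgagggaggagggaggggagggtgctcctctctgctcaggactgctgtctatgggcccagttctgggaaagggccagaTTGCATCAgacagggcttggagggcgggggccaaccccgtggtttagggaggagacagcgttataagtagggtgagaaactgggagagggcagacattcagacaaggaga
Atf3, chr1:191183334-191183583, minus strand: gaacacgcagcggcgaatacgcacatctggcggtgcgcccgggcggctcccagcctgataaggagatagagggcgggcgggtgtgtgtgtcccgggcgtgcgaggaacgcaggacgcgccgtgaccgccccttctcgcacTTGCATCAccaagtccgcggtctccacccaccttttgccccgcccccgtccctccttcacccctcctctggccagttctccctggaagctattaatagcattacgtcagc
The core began 23 bases before the start of Asns, 193 bases before that of Chac1 and 110 bases before those of Nupr1 and Atf3. The windows of Atf4, Atf5, Ddit3, Trib3, Psat1 and Sesn2 did not hold it.

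The arrays gave median signals between 127.2 and 184.9, and between 11457 and 12953 probes were detected per array. A probe was called detected on an array when the deposited detection p-value, which compares it with background beads, was under 0.05, and 11143 probes entered the tests because all arrays of 1 group or more detected them. The hepatocyte markers Ttr, Apoa1, Apoc3, Cps1, Hnf4a and Cyp2e1 were detected on all 16 arrays, but the Alb probe on 4 and the Tat probe on 1 array. Summed levels of markers are the log2 of the sum of their unlogged levels, so that the markers with the highest levels weigh most. EOW mouse 4 stood apart in its summed level of 7 T and NK cell markers, which was 7.13 log2 units, against 2.74 to 3.50 in the other 12 mice, while Cd8a, Cd4 and Gzmb were on no array above background. Values without this mouse are therefore given where they matter, and the part of these cells in the results was not tested.

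Detection differed between the genes. Atf4, Atf5, Chac1, Nupr1 and 1 of the 3 Asns probes were detected on all 16 arrays. Both Ddit3 probes missed only EOW mouse 5, and 1 of the 2 Sesn2 probes was detected on 6 of 6 EOW, 4 of 5 2WM and 4 of 5 SD arrays. The Trib3 probe was detected on 6 of 6 EOW, 3 of 5 2WM and 2 of 5 SD arrays, so its level lay close to background throughout. A second Asns probe was detected on 5 of 6 EOW, 5 of 5 2WM and 2 of 5 SD arrays. The 4 probes left out of the tests were those of Atf3 (3 of 6 EOW, 1 of 5 2WM and 1 of 5 SD arrays) and Psat1 (5 of 6 EOW, 4 of 5 2WM and 0 of 5 SD arrays), the third Asns probe (1 of 6 EOW, 1 of 5 2WM and 0 of 5 SD arrays) and the second Sesn2 probe, which was on no array above background.

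**Figure D1:**
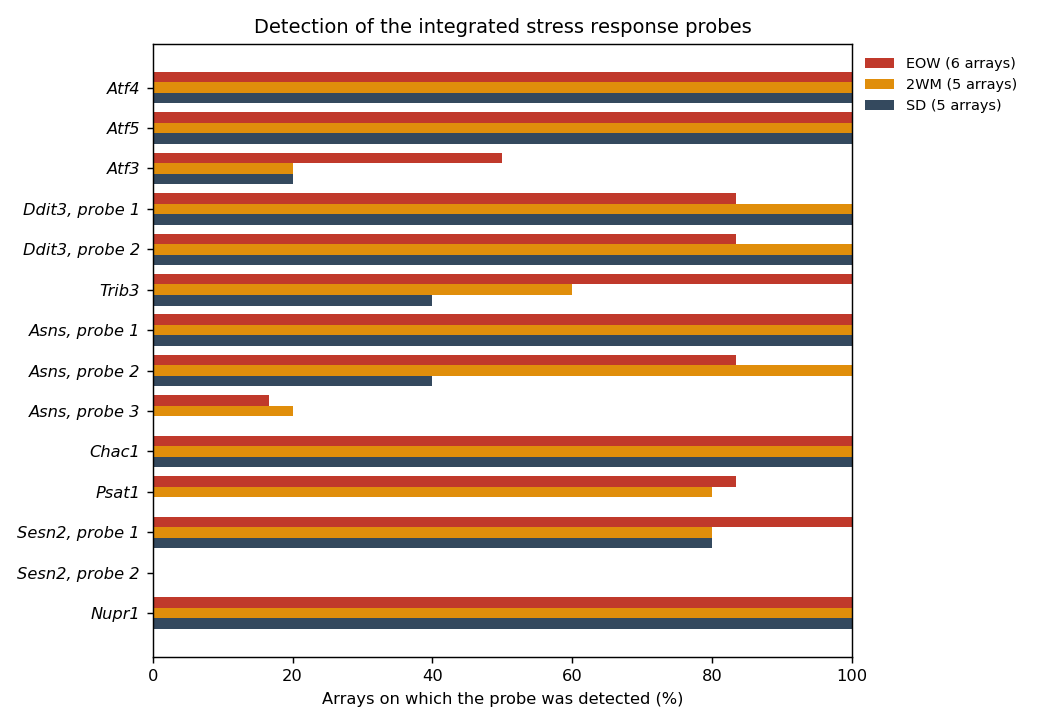
Share of arrays, in percent, on which each of the 14 probes was detected, with a bar for EOW (6 arrays), 2WM (5 arrays) and SD (5 arrays). Psat1 was detected on 5 EOW, 4 2WM and 0 SD arrays, and probe 2 of Sesn2 on none.

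Levels are given as log2 units relative to the mean of all probes on the array, and a level below 0 is a signal below the array average. Each array was divided by its own SD, between 1.351 and 1.582, and multiplied by the mean SD of the arrays. A difference of 1 is therefore only about a doubling of signal, and fold differences are approximate. Levels of different probes are not comparable with each other. The repeat arrays of the same liver differed by a median of 0.11 log2 units over the tested probes of these genes and by at most 0.44, which was Atf5 in SD mouse 1.

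Among the transcription factors, Atf4, the central effector of the pathway, had levels of 2.54, 3.07, 2.94, 3.05 and 2.76 in the EOW mice, 2.83, 3.02, 2.91 and 2.85 in the 2WM mice and 2.59, 3.12, 2.72 and 2.67 in the SD mice. The lowest liver was an EOW one and the highest an SD one, and the groups overlapped. The EOW mean lay 0.10 ± 0.13 log2 units (SE) above the SD mean (limma adjusted p = 0.75), the 2WM mean 0.13 ± 0.14 above it (limma adjusted p = 0.961), and both differences fell below 0 when arrays were centred on their medians.

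Atf5, a factor of the same family that is prominent in liver and also raised by translation under eIF2α phosphorylation, had the smallest p of the 8 tested genes. Its levels were 4.77, 5.00, 4.96 and 4.97 in the 2WM mice, against 4.55, 4.24, 4.40 and 4.81 in the SD mice, and the EOW mice had 4.49, 4.52, 4.85, 4.38 and 4.72. Of the 4 2WM livers, 3 lay above every SD liver, and 2WM mouse 1 lay below SD mouse 4 only. The 2WM mean was 0.43 ± 0.13 log2 units (SE) above the SD mean, a 1.34-fold difference with a 95% interval of 1.1 to 1.64. Its size depended on the processing, since it lay between 0.15 and 0.53 over the 26 other settings. With single mice left out it lay between 0.34 and 0.53. The fit with limma gave an adjusted p of 0.641 over the 11143 probes, and an exact unadjusted two-sided permutation test gave 0.0571, where 4 against 4 mice can reach 0.0286. The mean difference of EOW against 2WM mice was −0.33 ± 0.13 log2 units (limma adjusted p = 0.378), with 4 of 5 EOW livers below every 2WM liver (exact permutation p = 0.0317). The EOW mean itself lay 0.09 ± 0.13 above the SD mean (limma adjusted p = 0.752), a difference that fell below 0 with median centring. The 2 arrays of SD mouse 1 gave 4.33 and 4.77 for this probe, which is as large as the difference between the 2WM and SD means.

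Ddit3, which encodes CHOP, the factor that links prolonged stress to cell death, varied within groups more than between them. By its brighter probe it was at −0.41, 0.15, −0.22, 0.62 and −0.70 in the EOW mice, −0.24, −0.19, −0.59 and −0.30 in the 2WM mice and −0.34, 0.24, −0.09 and −0.36 in the SD mice. EOW mouse 4 was the highest and EOW mouse 5 the lowest of the 13 livers, on both probes, and they differed 2.5-fold on this one. The difference was 0.02 ± 0.23 log2 units for EOW against SD (limma adjusted p = 0.965) and −0.19 ± 0.24 for 2WM against SD (limma adjusted p = 0.968). Without EOW mouse 4, the liver with the high T and NK cell markers, the EOW value was −0.16, and the second probe gave −0.11 with all mice. Atf3, a factor induced early in many kinds of stress, was above background in EOW mice 2, 3 and 4, on 1 array of a 2WM mouse and on 1 array of an SD mouse. Its levels were −0.78, −0.37, −0.62, −0.33 and −0.89 in the EOW mice, −0.83, −0.72, −0.83 and −0.68 in the 2WM mice and −0.76, −0.88, −0.86 and −0.85 in the SD mice. The 3 EOW livers with detection lay above every SD liver, whereas EOW mouse 1 lay in the SD range and EOW mouse 5 just below it. Fitted without the filter on dim probes, Atf3 differed by 0.24 ± 0.10 log2 units (SE) for EOW against SD (limma adjusted p = 0.494, with an unadjusted p under 0.05) and by 0.08 ± 0.11 for 2WM against SD (limma adjusted p = 0.999), and most of these levels lay near background. The share of all probes under that unadjusted threshold was not counted in this fit. Atf3 was not fitted without EOW mouse 4, its highest liver.

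**Figure D2:**
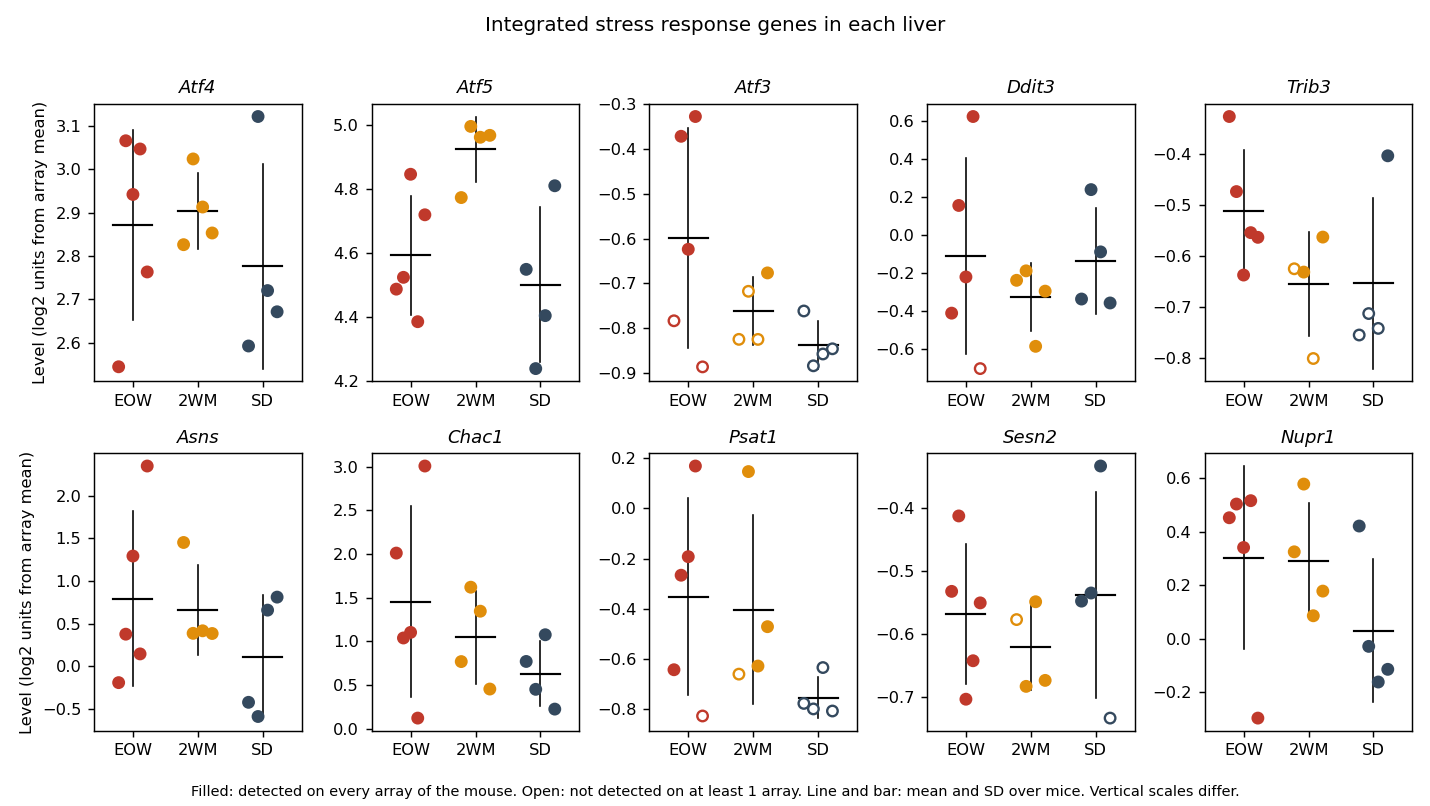
Level in each liver, in log2 units relative to the array mean, of the brightest probe of each of the 10 genes in EOW, 2WM and SD mice, with filled points where the probe was detected on every array of the mouse, open points where it was not, a line at the mean and a bar of 1 SD. The points of Asns and Chac1 spread most in EOW mice, and 3 of 4 2WM points of Atf5 lie above all SD points.

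Among the targets, Asns, the enzyme that makes asparagine from aspartate, had levels of −0.19, 0.38, 1.29, 0.14 and 2.35 in the EOW mice, 1.45, 0.39, 0.41 and 0.38 in the 2WM mice and −0.42, −0.59, 0.66 and 0.81 in the SD mice. EOW mice 3 and 5 lay above all SD mice, the other EOW mice lay among them, and in the 2WM group only mouse 1 lay above them. The difference was 0.68 ± 0.49 log2 units (SE) for EOW against SD, a 1.60-fold difference with an interval of 0.773 to 3.32 (limma adjusted p = 0.54). It was 0.55 ± 0.51 for 2WM against SD (limma adjusted p = 0.938). With single mice left out the EOW value lay between 0.29, without EOW mouse 5, and 0.93, and the 2WM value between 0.28, without 2WM mouse 1, and 0.78. The second, dimmer probe gave 0.27 ± 0.26 for EOW against SD and 0.19 ± 0.27 for 2WM against SD, and it put EOW mouse 5 highest as well. This probe entered the tests only through the 2WM mice, so the filter favoured a higher 2WM level.

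Chac1, an enzyme that degrades glutathione and is induced downstream of ATF4, had the largest EOW difference of the 8 genes. Its levels were 2.01, 1.04, 1.10, 0.12 and 3.01 in the EOW mice, 0.77, 1.62, 1.34 and 0.45 in the 2WM mice and 0.77, 0.45, 1.08 and 0.22 in the SD mice. EOW mice 1, 3 and 5 lay above every SD mouse, whereas EOW mouse 4 lay below all of them. The EOW mean was 0.83 ± 0.46 log2 units (SE) above the SD mean, a 1.77-fold difference with an interval of 0.883 to 3.56 (limma adjusted p = 0.442). The 2WM mean was 0.42 ± 0.49 above it (limma adjusted p = 0.968). With single mice left out the 2WM value lay between 0.23, without 2WM mouse 2, and 0.62. The EOW value moved with single livers in both directions, since it was 1.16 without EOW mouse 4 (limma adjusted p = 0.247, the lowest over its alternatives, which reached 0.671) and 0.44 without EOW mouse 5.

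Asns and Chac1 were among the most variable probes measured. Their SDs over the 13 livers, 0.803 and 0.796 log2 units, were above those of 97.3% and 97.2% of the tested probes, whose median SD was 0.214. From the lowest to the highest liver they spanned 7.67-fold and 7.41-fold, and for both the highest was EOW mouse 5. In that same liver Ddit3 and Nupr1 were at their lowest, while Atf4, at 2.76, was close to its SD levels. The order of the mice thus differed from gene to gene, as the plot of deviations shows.

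**Figure D3:**
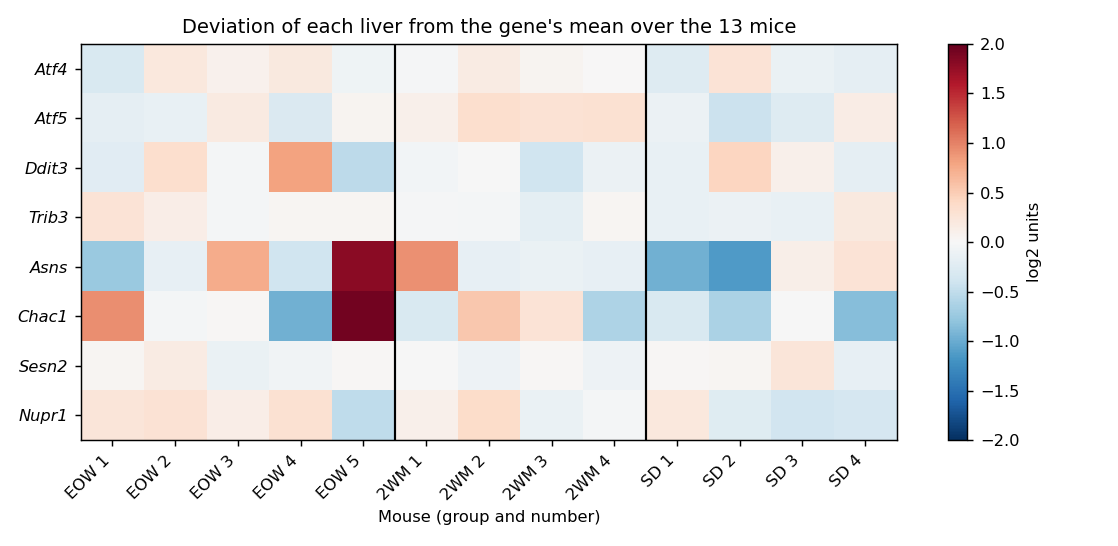
Deviation of each liver (columns, in log2 units) from the mean of the 13 mice for the 8 tested genes (rows), with EOW, 2WM and SD mice separated by lines. Asns and Chac1 are highest in EOW mouse 5, where Ddit3 and Nupr1 are lowest.

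Nupr1, a small stress-induced chromatin protein, was at 0.45, 0.50, 0.34, 0.52 and −0.30 in the EOW mice, 0.32, 0.58, 0.09 and 0.18 in the 2WM mice and 0.42, −0.03, −0.16 and −0.11 in the SD mice. Of the 5 EOW livers 3 lay above all SD livers, and EOW mouse 5 lay below all of them. The difference was 0.27 ± 0.18 log2 units (SE) for EOW against SD (limma adjusted p = 0.506) and 0.26 ± 0.19 for 2WM against SD (limma adjusted p = 0.909). Without EOW mouse 5 the EOW value was 0.42 (limma adjusted p = 0.247, with an unadjusted p under 0.05), and without EOW mouse 4 it was 0.22. With single mice left out the EOW value lay between 0.21 and 0.42, and the 2WM value between 0.17, without 2WM mouse 2, and 0.39. Trib3, a pseudokinase induced by ATF4 and CHOP that restrains ATF4, spanned −0.64 to −0.33 in EOW mice, −0.80 to −0.56 in 2WM mice and −0.76 to −0.40 in SD mice. Its difference was 0.14 ± 0.10 for EOW against SD (limma adjusted p = 0.523) and close to 0 for 2WM against SD (limma adjusted p = 0.999). With single mice left out the EOW value of Trib3 lay between 0.10 and 0.23, the highest without SD mouse 4. Sesn2, which holds back mTORC1 when leucine is short, differed by −0.03 ± 0.09 for EOW against SD (limma adjusted p = 0.898) and by −0.08 ± 0.10 for 2WM against SD (limma adjusted p = 0.968). These last probes were also dim, and BeadArray background compresses the differences of dim probes.

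Psat1, which makes phosphoserine on the path to serine, was the gene whose detection differed most between diets. Its signals were 148.5, 149.9, 177.7, 218.3, 236.1 and 150.4 on the 6 EOW arrays, the first pair from EOW mouse 1, and 173.2, 159.7, 331.1, 180.4 and 201.2 on the 5 2WM arrays, the first pair from 2WM mouse 1. They were 170.4, 176.3, 138.1, 182.8 and 140.2 on the 5 SD arrays, the first pair from SD mouse 1, and none of these was above background. Scaled within the array, EOW mouse 4 and 2WM mouse 2 had the highest levels, 0.17 and 0.15 log2 units, and EOW mouse 5 the lowest, −0.83, against −0.81 to −0.63 in the SD mice. Some undetected SD signals, up to 182.8, exceeded detected EOW signals such as 148.5, so detection also depended on the array. SD levels were also raised, where lower, to the lowest level of any probe detected on the array. The EOW mean then lay 1.26-fold and the 2WM mean 1.21-fold above SD. These ratios of means carry no sampling error and are not lower bounds on a difference between diets. Fitted without the filter on dim probes, the differences were 0.40 ± 0.20 log2 units (limma adjusted p = 0.558 over 25697 probes) and 0.35 ± 0.21 (limma adjusted p = 0.968), and the SD levels overlapped those of both metformin groups. Psat1 was not fitted without single mice, so the weight of EOW mouse 4 and 2WM mouse 2 in these differences is not known.

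Over the 8 tested genes, 7 had a higher mean in EOW than in SD mice and 1 a lower one, with a median difference of 0.12 log2 units, against −0.03 over all tested probes. With median centring Atf4 and Atf5 changed sides. In 2WM against SD mice, 5 were higher and 3 lower, with a median of 0.19 against −0.03 over all probes, and here Atf4 changed sides with median centring. In EOW against 2WM mice, 6 were higher and 2 lower, with a median of 0.09 against 0.00294 over all probes. The 2 comparisons with SD share the same 4 SD mice. Trib3 and Sesn2 entered the tests only because all EOW arrays detected them. The filter thus favoured a higher EOW level for these genes, and their sides in the counts are not independent of it.

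None of the 8 genes passed an adjusted p of 0.05 in any comparison, and neither did any of the 11143 probes (0% called in each, limma), although 1542, 661 and 1188 probes had an unadjusted p under 0.05 for EOW against SD, 2WM against SD and EOW against 2WM. At that unadjusted threshold 0 of 8 genes were called in EOW against SD mice, where 5.59% of all tested probes were higher and 8.25% lower. With a single mouse left out 1 gene, higher in EOW, was called there in 4 of the 13 cases, namely Chac1 without EOW mouse 4, Nupr1 without EOW mouse 5 or SD mouse 1, and Trib3 without SD mouse 4. The share of all probes called in these fits was not counted, and Trib3 had entered the tests only through EOW mice. In 2WM against SD mice Atf5 was higher and no gene lower, beside 2.23% of probes higher and 3.71% lower. In EOW against 2WM mice Atf5 was lower and no gene higher, beside 5.26% higher and 5.4% lower. With median centring the share of higher probes among these was 15.2% in place of 40.4% for EOW against SD, 6.85% in place of 37.5% for 2WM against SD and 65.2% in place of 49.3% for EOW against 2WM.

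No tested gene had groups that did not overlap. The share of probes with every mouse of the first group above, or below, every mouse of the second was 1.75% and 2.4% for EOW against SD, 2.16% and 3.66% for 2WM against SD, and 1.99% and 1.97% for EOW against 2WM. By the criteria in the study's methods (combined limits on a false discovery rate of 0.3 and on a z-ratio of 1.5, among others), which ask for less than an adjusted p of 0.05, Atf5 was the 1 probe of these genes called in 2WM against SD mice, with a z-ratio of 2.16. None was called in the other comparisons, and the criteria called 3.16%, 2.59% and 2.76% of all tested probes for EOW against SD, 2WM against SD and EOW against 2WM.

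**Figure D4:**
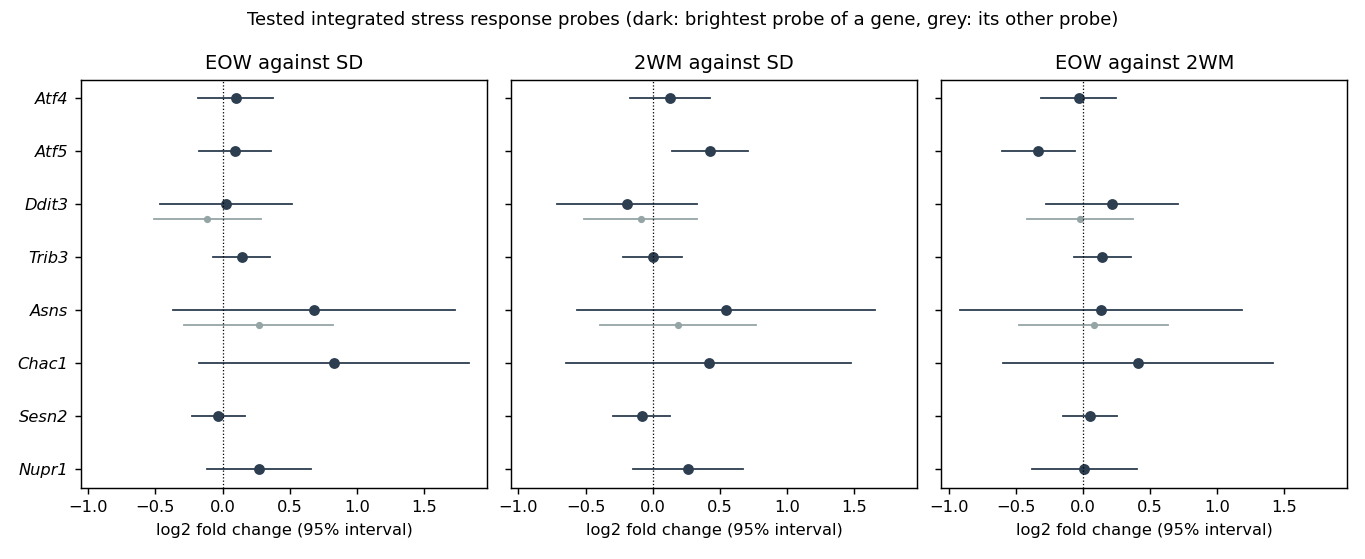
Log2 fold changes with 95% intervals (horizontal) of the 10 tested probes of 8 genes in EOW against SD, 2WM against SD and EOW against 2WM, with the brightest probe of a gene dark and its other probe grey. The intervals of Atf5 in 2WM against SD and in EOW against 2WM leave out 0, and those of Asns and Chac1 are the widest.

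Upstream of these genes, Eif2ak1 (HRI, the haem-sensing kinase) differed by −0.28 ± 0.12 log2 units (SE) in EOW against SD mice (limma adjusted p = 0.335), or −0.18 without SD mouse 3, and by −0.13 ± 0.13 in 2WM against SD mice. Eif2ak2 (PKR, the kinase for double-stranded RNA and an interferon-stimulated gene) was at 2.08, 2.12, 1.59 and 2.11 in the 2WM mice, against 1.51, 1.68, 1.40 and 1.10 in the SD mice. The 2WM levels lay above the SD ones except for 2WM mouse 3, and the difference was 0.55 ± 0.18 (limma adjusted p = 0.678). In EOW mice Eif2ak2 lay at 0.96 to 1.61, −0.16 ± 0.17 from the SD mean. Eif2ak3 (PERK, the ER stress kinase) differed by −0.21 ± 0.31 in EOW and 0.45 ± 0.32 in 2WM against SD mice, and by 0.10 in EOW mice without EOW mouse 4, whose level was −1.16. Eif2ak4 (GCN2, the amino acid sensor) was not tested because it was too dim. Of the phosphatase subunits that reverse the pathway, the constitutive one, Ppp1r15b, lay at −0.29 to −0.18 in the EOW mice, −0.35 to −0.04 in the 2WM mice and −0.28 to 0.28 in the SD mice. It differed from SD by −0.34 ± 0.11 in EOW (limma adjusted p = 0.238) and −0.32 ± 0.12 in 2WM mice (limma adjusted p = 0.759). The stress-induced one, Ppp1r15a (GADD34), differed by −0.08 ± 0.09 and −0.14 ± 0.09. No gene of either list passed the adjusted threshold.

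The aminoacyl-tRNA synthetases, which charge tRNAs and include many ATF4 targets, lay mostly above SD in both metformin groups, although with median centring only 8 of 17 did in EOW (median −0.062) and 11 of 17 in 2WM mice (median 0.068). Of 17 tested, 13 were higher and 4 lower in EOW as in 2WM mice, with medians of 0.08 and 0.20 log2 units, where 44.8% and 43.2% of all tested probes were higher. At an unadjusted p under 0.05, 1 of 17 was higher in EOW and 5 of 17 in 2WM mice, beside 5.59% and 2.23% of all probes, and 1 and 4 lay above every SD mouse, beside 1.75% and 2.16%. Tars, for threonine, was at 1.57, 1.56, 1.59 and 1.23 in the 2WM mice, against 1.21, 0.94, 0.84 and 1.14 in the SD mice, a difference of 0.46 ± 0.12 (limma adjusted p = 0.506) without overlap. Nars, for asparagine, was at 1.90 to 2.27 in 2WM and 1.64 to 1.87 in SD mice, and Aars, for alanine, at 3.91 to 4.40 in 2WM and 3.52 to 3.88 in SD mice, with differences of 0.41 ± 0.14 and 0.43 ± 0.14. Gars, for glycine, lay above all SD mice in both metformin groups, at 4.01 to 4.36 in EOW and 3.97 to 4.34 in 2WM mice, against 3.66 to 3.91 in SD mice. Its difference was 0.34 ± 0.10 in EOW (limma adjusted p = 0.219) and 0.31 ± 0.11 in 2WM mice (limma adjusted p = 0.704). Over the 26 other settings the EOW difference of Gars lay between 0.15 and 0.37. The 2WM differences lay between 0.24 and 0.63 for Tars, 0.27 and 0.505 for Nars and 0.19 and 0.51 for Aars. In EOW mice Tars lay at 0.71 to 1.13, below every 2WM mouse (−0.56 ± 0.12, limma adjusted p = 0.23).

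Of 16 other targets of ATF4 and CHOP, 11 were higher and 5 lower in each metformin group than in SD mice, with medians of 0.24 in EOW and 0.07 in 2WM mice, of which the 2WM one was −0.040 with median centring. Bbc3, which encodes the pro-apoptotic protein PUMA and is a target of p53 as well as of CHOP, was at 1.91, 1.81, 1.63 and 1.82 in the 2WM mice, against 0.98, 0.88, 0.75 and 1.33 in the SD mice. All 2WM livers lay above all SD livers, by 0.81 ± 0.14 log2 units on average (limma adjusted p = 0.188). The adjusted p was 0.0399 without EOW mouse 4 and 0.0481 without SD mouse 4, and it ranged between 0.00216 and 0.768 over all alternatives. EOW mice had 1.37, 1.24, 1.32, 1.71 and 1.26, which was 0.39 ± 0.13 above SD (limma adjusted p = 0.238) and overlapped SD mouse 4. Gadd45b, a stress gene of the GADD45 family, lay at −0.51 to −0.22 in EOW mice, above the −0.79 to −0.66 of the SD mice (0.30 ± 0.09, limma adjusted p = 0.205).

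Amino acid enzymes and transporters lay on both sides of SD. Of 6 enzymes of serine, proline and one-carbon metabolism 3 were higher and 3 lower in each metformin group than in SD mice, and 1 was higher in 2WM mice with median centring. Gpt2, the mitochondrial alanine transaminase, lay 0.55 ± 0.23 above SD in EOW mice (limma adjusted p = 0.31) and was highest in EOW mouse 5, without which the difference was 0.38. Pycrl, a pyrroline-5-carboxylate reductase, lay −1.03 ± 0.39 from SD (limma adjusted p = 0.281), at −0.96 in EOW mouse 4 and 0.78 to 1.57 in the other EOW mice, against 1.52 to 1.97 in SD mice, and −0.60 from SD without EOW mouse 4. Of 8 transporters 5 were higher and 3 lower in each group, and 4 were higher in each with median centring. Slc7a5, the light chain of the LAT1 carrier, was at 0.22 to 1.64 in EOW mice, highest in EOW mouse 4, and at 0.04 to 0.35 in SD mice, with a difference of 0.53 ± 0.24 (limma adjusted p = 0.354). Without EOW mouse 4 it was 0.29 and no transporter had an unadjusted p under 0.05.

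Of 8 leucine-zipper partners of ATF4 and CHOP, 5 were higher in EOW than in SD mice (4 with median centring), and 7 were lower in 2WM than in SD mice. Cebpa, a main liver C/EBP factor, was at 0.73, 1.51, 0.83, −0.93 and 0.57 in the EOW mice, against 1.41, 2.03, 2.71 and 1.48 in the SD mice. Only EOW mouse 2 reached into the SD range, and the difference was −1.37 ± 0.43 log2 units (limma adjusted p = 0.223) and −1.00 without EOW mouse 4. Fos, a subunit of AP-1, lay at −0.48 to 0.30 in 2WM and 0.06 to 1.04 in SD mice (−0.70 ± 0.24, limma adjusted p = 0.699). The 7 tested subunits of eIF2 and eIF2B had medians of 0.04 in EOW (−0.068 with median centring) and −0.12 in 2WM against SD mice, with no unadjusted p under 0.05.

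The ER chaperones and the genes of the IRE1 and ATF6 branches, which belong to the unfolded protein response beside ATF4, were mostly lower in EOW mice. Of 16 tested, 14 were lower and 2 higher in EOW than in SD mice, with a median of −0.30 log2 units, and 4 were lower at an unadjusted p under 0.05, where 44.8% of all tested probes were higher and 8.25% were lower at that threshold. In 2WM mice 9 were higher and 7 lower than in SD mice, with a median of 0.03 (5 higher, 11 lower and a median of −0.16 with median centring), and 15 of 16 were lower in EOW than in 2WM mice, with a median of −0.30. Creb3l3 (CREBH), an ER-bound transcription factor of hepatocytes, was at 2.25, 2.30, 1.98, 1.93 and 1.87 in the EOW mice, against 2.58, 2.44, 3.14 and 2.47 in the SD mice. Every EOW liver lay below every SD liver, with a mean difference of −0.59 ± 0.15 (limma adjusted p = 0.179). Hyou1, an ER chaperone, and Edem1, which guides misfolded glycoproteins to degradation, differed from SD in EOW mice by −0.33 ± 0.11 and −0.34 ± 0.12 (limma adjusted p = 0.238 and 0.258). Without EOW mouse 4, 11 of the 16 were lower in EOW than in SD mice and the median was −0.20. Over the 26 other settings the EOW median against SD ranged from −0.36 to 0.07, so its sign was not the same in all. These lists were described by counts only, and no test of a list was made.

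By the criteria in the study's methods, Creb3l3 and Cebpa were called lower in EOW than in SD mice among the genes named from these lists. In 2WM against SD mice Bbc3, Tars, Nars, Aars, Gars and Eif2ak2 were called higher, with z-ratios of 4.11, 2.32, 2.07, 2.16, 1.59 and 2.79, and Fos and Ppp1r15b lower. In EOW against 2WM mice Fos was called higher and Tars and Eif2ak2 lower. The named genes had been picked for a small p, so these calls are no independent evidence, and the criteria called 3.16%, 2.59% and 2.76% of all probes in the 3 comparisons.

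Markers of some cell types lay mostly on one side of SD as well, and those of others did not. Of 9 Kupffer cell and macrophage markers 5 were higher and 4 lower in EOW, and 6 and 3 in 2WM mice. Of 8 sinusoidal endothelial markers 4 were higher and 4 lower in EOW, and 5 and 3 in 2WM mice. Only 2 markers each of neutrophils, of B and plasma cells and of cholangiocytes were tested. The 7 tested hepatocyte markers were all higher in EOW and in 2WM than in SD mice, with medians of 0.25 and 0.28 log2 units that became −0.036 and −0.11 with median centring (3 and 0 of 7 higher). Their summed levels were 8.94 to 9.76 in EOW, 9.14 to 9.53 in 2WM and 8.85 to 9.35 in SD mice. All 7 T and NK cell markers were higher in EOW than in SD mice, with a median of 0.79, and summed to 3.01 to 7.13 in EOW, against 2.74 to 3.32 in SD mice. The 7.13 was that of EOW mouse 4, and the other EOW mice lay at 3.01 to 3.37, mostly in the SD range. Of 7 stellate cell markers 6 were higher in each metformin group than in SD mice (5 with median centring), 3 of them in EOW mice at an unadjusted p under 0.05 (Dcn, Col3a1 and Des), beside 5.59% of all tested probes. The 7 markers summed to 5.98 to 6.76 in EOW, 5.93 to 6.19 in 2WM and 5.42 to 6.02 in SD mice. Of the 3 tested erythroid markers 1 was higher and 2 lower in EOW than in SD mice, with a median of −0.42 (0 higher and −0.57 with median centring). All 3 were lower in 2WM than in SD mice, with a median of −0.73. They summed to 1.54 to 5.05 in EOW, 2.62 to 3.78 in 2WM and 3.82 to 4.40 in SD mice, and EOW mice 3 and 4 lay above every SD mouse. Among them Alas2, the haem synthesis enzyme of red cell precursors, differed by −1.96 ± 0.47 in EOW against SD mice (limma adjusted p = 0.159), with every EOW mouse below every SD mouse. No marker passed an adjusted p of 0.05, and the part of these shifts in the results above was not tested.

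**Figure D5:**
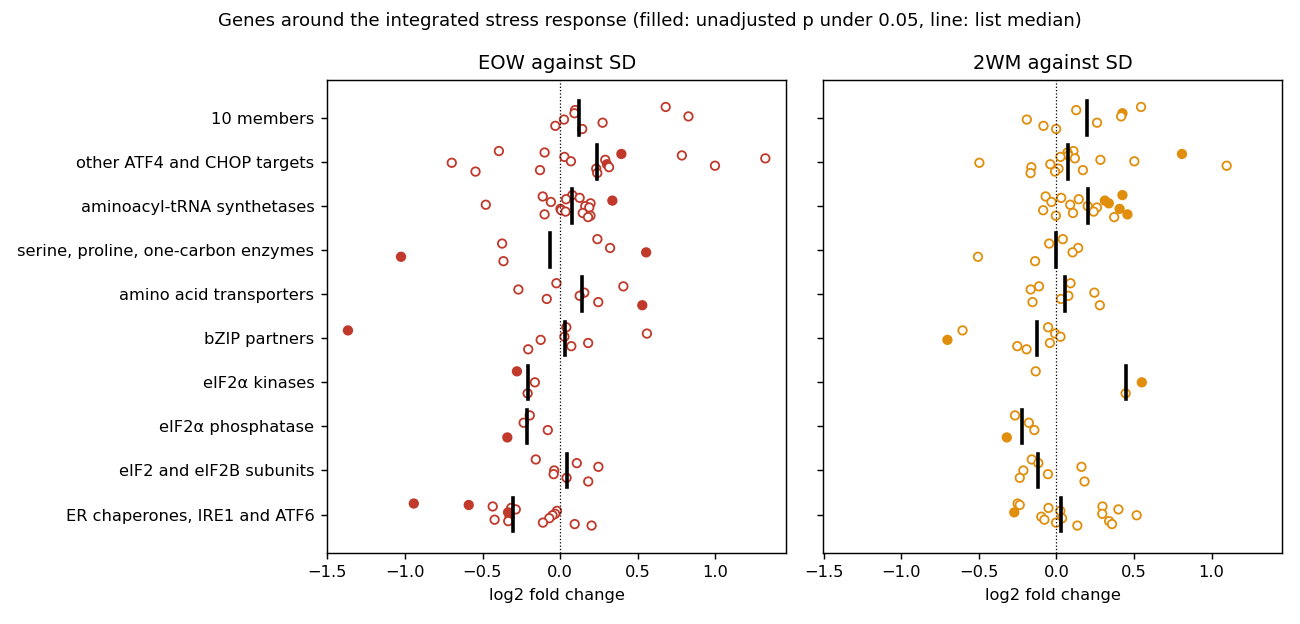
Log2 fold changes (horizontal) of the tested genes of the 10 lists in EOW against SD and 2WM against SD mice, 1 point per gene, filled where the unadjusted p was under 0.05, with a line at the list median. The ER list has its median at −0.30 in EOW and 0.03 in 2WM mice, and the aminoacyl-tRNA synthetases have theirs at 0.08 and 0.20.

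Other genes followed some of these genes closely over the 13 livers. The 3 most similar to Nupr1 were Med20 (Pearson r = 0.962, Spearman rho = 0.978), Cxcl16 (r = 0.942, rho = 0.912) and Casp4 (r = 0.932, rho = 0.945), and r stayed at 0.904 or above without the 2 livers farthest from the median of Nupr1. Those most similar to Ddit3 were Irf1 (r = 0.945, rho = 0.841), 2510039O18Rik (r = 0.92, rho = 0.912) and Arrb2 (r = 0.916, rho = 0.769). For these r was 0.893, 0.855 and 0.836 without EOW mouse 4, and 0.861, 0.785 and 0.794 without EOW mouse 4 and SD mouse 2. Chac1 was followed by Ext1 (r = 0.883, rho = 0.604), Prps1 (r = 0.848, rho = 0.841) and Foxred1 (r = 0.835, rho = 0.83), and r was 0.565, 0.734 and 0.611 without EOW mice 5 and 1. Asns was followed by Ctsl (r = 0.86, rho = 0.841), Dact2 (r = 0.855, rho = 0.929) and Slc25a3 (r = 0.833, rho = 0.819), with r of 0.678, 0.819 and 0.613 without EOW mouse 5 and 2WM mouse 1. Atf5 was followed by Mettl9 (r = 0.874), Pcmtd2 (r = 0.859) and Psma3 (r = 0.843), with r of 0.811, 0.926 and 0.826 without SD mouse 2 and EOW mouse 4. None of the 15 genes named here belongs to the 10 genes of the response. The points share arrays and diets, the genes were the nearest of all tested probes, and these values are a description.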

How the data were processed

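The authors deposited probe intensities of 16 arrays, with no background correction stated, and a detection p-value for each probe and array. They also deposited a score per probe and array, which equalled the Z score of the log2 intensity (largest difference 0.00011). The submitters' processing notes name GenomeStudio 2011.1. Following the methods of the study, log2 intensities were turned into Z scores on each array. They were then multiplied by 1.462, the mean SD of the arrays, and averaged per mouse.

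The 3 groups were fitted together with limma 3.58.1 in R 4.3.3 (lmFit, then eBayes). Benjamini-Hochberg adjustment ran over the 11143 tested probes, and p-values of genes are limma's except where a permutation test is named. A gene was read by its brightest tested probe. The fit was also run on simulated data with independent noise for each probe and mouse. That run cannot show how differences shared by a whole array affect it. 

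The 10 genes and the lists were chosen with earlier results of these data known. From each pathway list, up to 3 genes per comparison with SD were named, those with the smallest unadjusted p under 0.05, and all kinases and both Ppp1r15 subunits. For each gene of the response whose SD was above the median of all tested probes, the 3 genes with the highest r were named.

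The alternatives changed the background correction (neqc, offset 16), the normalization (quantile, median centring, deposited scores), the filter on dim probes (none, or a detection p-value under 0.01), the samples fitted, the array used per mouse, the probe rule, the variance model (intensity trend, array weights with statmod 1.5.0), a block for the replicate number, the call rule and the mice left out, 1 at a time. Those for the pathway and marker lists were chosen after seeing the data. Sequences came from RefSeq (GRCm38.p6), where all 10 genes had a window. The number of arrays limits the precision.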

Additional observations from a re-analysis of the deposited data

Results flagged for a closer look

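Of 30 groups of mice examined over the 10 tested probes, 4 held a mouse that lay far from the rest of its group for the size of that group, where chance flags about 1 in 20 groups, or 1.5 here. Asns was at 1.45 log2 units in 2WM mouse 1, against 0.38 to 0.41 in the other 2WM mice, and both arrays of that mouse agreed (1.48 and 1.42). Atf5 was at 4.77 in the same 2WM mouse 1, below the 4.96 to 5.00 of the other 2WM mice. Nupr1 was at −0.30 in EOW mouse 5, below the 0.34 to 0.52 of the other EOW mice. Trib3 was at −0.40 in SD mouse 4, above the −0.76 to −0.71 of the other SD mice, and among the SD arrays only those of this mouse and 1 of the 2 arrays of SD mouse 1 were above background.

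Some probes outside the tests were above background under metformin and on 0 SD arrays. Psat1 was detected on 5 of 6 EOW arrays and 4 of 5 2WM arrays. The third Asns probe was detected on 1 EOW array and 1 2WM array, those of EOW mouse 5 and 2WM mouse 1, which were also the highest livers on the brightest Asns probe. Why these livers stood apart was not tested.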

How the results depend on the processing

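The 8 tested genes stayed above an adjusted p of 0.05 in all 615 values (gene by comparison, over 26 other settings), with 0.0803 as the lowest adjusted p (Atf5 in 2WM against SD), and kept their direction in 587. Each difference that changed direction was smaller than its standard error with all mice. Under median centring Atf4 became −0.046 in EOW against SD, −0.062 in 2WM against SD and 0.016 in EOW against 2WM, and Atf5 became −0.12 in EOW against SD. Ddit3 in EOW against SD became −0.093 with neqc, −0.15 with array weights, −0.044 as the mean of its probes and −0.16 to 0.17 without single mice. Sesn2 in EOW against SD became 0.018 with the first array of a mouse and −0.096 to 0.037 without single mice. Trib3 in 2WM against SD became 0.056 with the first array, 0.020 with array weights and −0.036 to 0.082 without single mice. In EOW against 2WM, Nupr1 became −0.024 with neqc and −0.057 to 0.16 without single mice, Atf4 was −0.080 to 0.051 and Asns −0.25 to 0.40 without single mice. Eif2ak3 in EOW against SD became 0.044 with array weights and −0.33 to 0.10 without single mice.

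Probes with an adjusted p under 0.05 numbered 1, 2 and 0 with neqc for EOW against SD, 2WM against SD and EOW against 2WM, 5 with median centring for EOW against SD, 12, 41 and 4 with array weights, 2 with only the groups compared and 2 with the first array for 2WM against SD, and 352, 289 and 308 by the criteria of the methods. Without single mice they ranged over 0 to 6, 0 to 5 and 0 to 3. The count of the 8 genes at an unadjusted p under 0.05 was 2 with array weights (Chac1 and Nupr1) and 0 to 1 without single mice for EOW against SD, 0 with median centring for 2WM against SD, and 0 with neqc and 0 with median centring for EOW against 2WM. The share of all probes at this threshold was not counted under any of the other settings, so these counts have no background to be read against. With the stricter filter only 5 of the 8 genes (Atf4, Atf5, Asns, Chac1 and Nupr1) could be fitted, and their median in 2WM against SD was 0.42. With the replicate number as a block over mice 1 to 4, 1, 1 and 0 probes were called, 1 of the 8 genes (Nupr1, 0.42) had an unadjusted p under 0.05 in EOW against SD, and Asns in EOW against 2WM was −0.25. Same-numbered mice correlated between −0.381 and 0.328 in their deviations. These few correlations, of both signs, cannot tell whether the numbers pair the mice. The causes of these shifts were not tested. Signals near background limit Trib3, Sesn2, Ddit3, Atf3 and Psat1.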
